A study of Homo sapiens with 5 samples.

Results

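The regions described here are stretches of active chromatin that were listed in RD cells, had no listed counterpart in RH18 cells, and lay away from the MYF5 binding sites of RH18. They were chosen from peak lists of chromatin immunoprecipitation followed by sequencing (ChIP-seq). A member is a region of the RD H3K27ac list that overlapped no RH18 H3K27ac region by 1 bp or more and had no RH18 MYF5 summit inside it or within 500 bp. This rule picked 15538 of the 43159 RD regions, or 36.0% (exact Clopper-Pearson 95% interval 35.5 to 36.5%). The members covered 5.54 Mb, which was 26.1% of the bases in the RD list. Of the other RD regions, 18112 were shared with RH18 and lacked MYF5, 7772 were shared and had MYF5, and 1737 were RD-only with MYF5. The count of members depends on what counts as a counterpart: it was 9405 when RH18 regions within 5 kb also counted, 8801 when both lists were held to a −log10 q-value of 10 or more, and 25137 when a counterpart had to overlap by 50% of both regions.

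H3K27ac, histone H3 acetylated at lysine 27, is laid down by the acetyltransferases p300 and CBP and marks active enhancers and promoters. Enhancers differ far more between cell types than promoters do, so regions listed in one line and not in another are often distal. MYF5 is a basic helix-loop-helix factor of muscle progenitors that binds E-boxes and opens muscle genes. Rhabdomyosarcoma is a soft tissue tumour whose cells express muscle regulators without completing muscle differentiation.

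RD and RH18 are human rhabdomyosarcoma lines in long use, both fusion-negative, which means without a PAX-FOXO1 gene fusion. Both were grown under the same conditions and given no treatment in the labels, and 3 libraries were used: RD H3K27ac, RH18 H3K27ac and RH18 MYF5. Each group was 1 library of 1 cell line, so no replicate error could be measured, no test was made, and a difference between lines includes any difference between libraries. Intervals cover counting error only, and neighbouring regions are not independent. MYF5 was mapped in RH18 alone, so a member without MYF5 is a region where RH18 MYF5 was not listed. Binding of MYF5 in RD cells was not analysed here. The RD list reached down to a −log10 p-value of 5.0 and the RH18 list to 7.09, and 975 members (6.27%) lay under that RH18 minimum, against 1066 of the other 27621 RD regions (3.86%). No sequence is shown, because a genome of build hg19, the build of the lists, was not used here.

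Both lines carried H3K27ac regions at 3 muscle genes that were picked after their counts were seen. Gene starts were entered from general knowledge of hg19 and rounded to 10 kb. Near MYOD1, the master regulator of muscle identity, 22 RD and 23 RH18 regions lay within 50 kb of the gene start, and 6 of the RD regions were members. Near MYOG, which drives terminal differentiation, the counts were 29 RD and 33 RH18 regions, with 7 members. Near DES, the muscle intermediate filament, there were 18 regions in each line and 0 members. Other muscle genes differed between the lines, among them MYL1 with 7 RD and 0 RH18 regions and ACTN2 with 1 and 4. Like counts in both lines do not check which line a library came from.

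Members were narrow and rested on few reads. Their median width was 274 bp (quartiles 208 to 405.8 bp, range 166 to 4217 bp), against 358 bp over the RD list. The number of reads (tags) at a summit was recovered from the deposited fold enrichment and p-value, and its median was 58 in members (quartiles 44 to 83, range 23 to 317) against 85 over the RD list and 101 in shared regions without MYF5. Fold enrichment, as deposited by the authors, differed less, with a median of 7.77 in members and 8.0 over the list. It is the ratio of signal to local background after the same constant is added to both. The constant lowers the ratio most where the background is low, so like folds do not mean like ratios of signal to background. Since the rule asks for no listed RH18 peak, these values describe what it picked and are no finding.

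The share of members thinned steadily with peak height. In the lowest decile of RD regions by tags, 2991 of 4315 were members (69.3%, 67.9 to 70.7%), against a background of 36.0% over the list. In the highest decile, with 178 to 319 tags, 252 of 4316 were members (5.84%, 5.16 to 6.58%). By width the share was 57.7% in the narrowest decile and 13% in the widest. Most members were thus low RD peaks, and for these a peak just under the RH18 threshold and absent acetylation cannot be told apart.

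The local background, which is the signal that the peak caller expects at a site without a peak, was also low under members. The processing notes do not say which library's reads it was taken from. In units of the lowest background of the RD list, its median was 1.35 under members, 2.34 over the list and 3.64 under shared regions without MYF5. It was raised to at least 4 times the lowest under 1865 members (12.0%), against 11908 of the other 27621 RD regions (43.1%, 42.5 to 43.7%) and 31.9% over the whole list. What sets the background of a region was not tested.

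**Figure D1:**
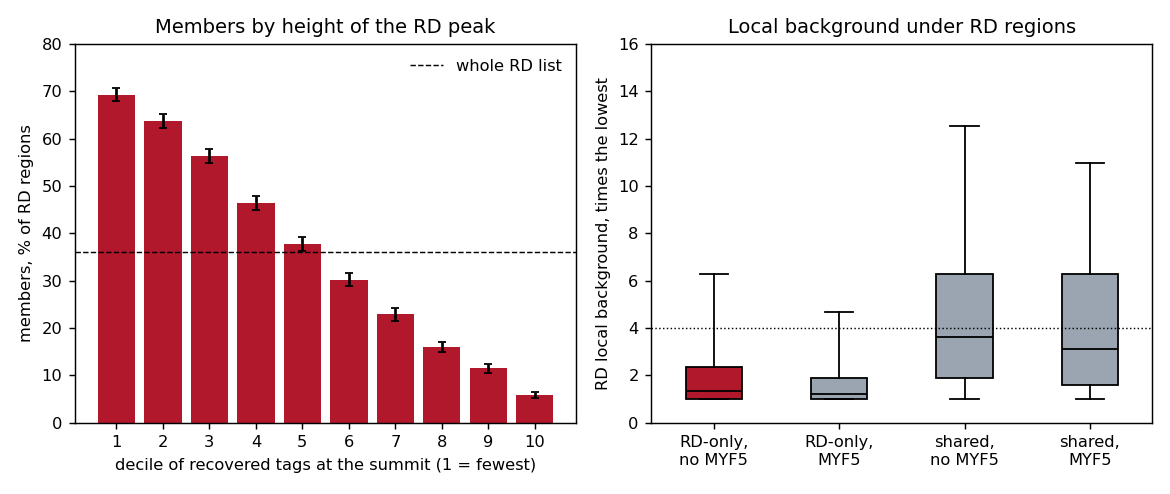
Left: share of RD regions that are RD-only without MYF5 (y axis, %) in each decile of the RD list by recovered tags at the summit (x axis); bars carry exact 95% intervals, the dashed line is the list's 36.0%, and the share runs down to 5.84% in the highest decile. Right: RD local background in units of the lowest of the list for the 4 classes of RD regions, with boxes for the quartiles, whiskers for the 5th and 95th percentiles and a dotted line at 4 times the lowest; the members' median is 1.35 and that of shared regions without MYF5 is 3.64.

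Many members sat beside active RH18 chromatin. The nearest RH18 H3K27ac region lay a median of 11008 bp away (quartiles 1421 to 51517 bp). Within 5 kb of one lay 6133 members (39.5%, 38.7 to 40.2%), where 76.5% of all RD regions overlapped one or lay that close. Only 14.5% lay within 0.5 kb. At the other end, 3962 members (25.5%) lay more than 50 kb from any RH18 region and 409 (2.63%) more than 500 kb. Within 5 kb of an RD region shared with RH18 lay 5386 members (34.7%). The members thus ran from flanks of RH18 regions to stretches where RH18 had nothing listed.

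MYF5 sites of RH18 were farther off than acetylated regions, an order that the rule and the list sizes lead to. The rule left out regions with a MYF5 summit within 500 bp but kept those that touched an RH18 region. The MYF5 list held 11136 peaks and the RH18 H3K27ac list 46408 regions. The nearest MYF5 summit lay a median of 51548 bp from a member, against 42063 bp from a shared region without MYF5. Within 5 kb of a summit lay 2517 members (16.2%, 15.6 to 16.8%), against 17.4% (16.8 to 18%) of the shared regions without MYF5. The shares of both classes near MYF5 thus differed by little.

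**Figure D2:**
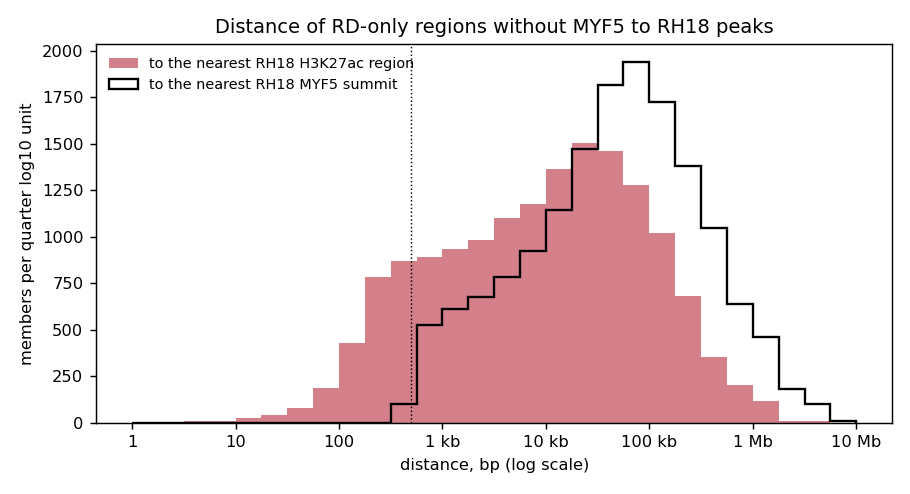
Number of members (y axis, per bin of equal width on the log scale) by distance in bp (x axis, log scale) to the nearest RH18 H3K27ac region (filled) and to the nearest RH18 MYF5 summit (line). The dotted line stands at 500 bp, the MYF5 distance of the rule; the medians are 11008 bp to RH18 regions and 51548 bp to MYF5 summits.

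At the edges of the rule the classes ran into each other. A member at chr1:43638036-43638202 (fold 8.58, 80 tags) ended 1 bp from an RH18 region, while an RD region at chr9:90215075-90215279 (fold 5.35, 68 tags) overlapped one by 1 bp and was left out. In all, 32 members ended 10 bp or less from RH18 acetylation, and 17 RD regions without MYF5 were shared by 10 bp or fewer. A member at chr4:38086551-38086717 (fold 6.94, 38 tags) had its nearest MYF5 summit at 501 bp, and an RD-only region at chr9:92765656-92765957 (fold 14.6, 84 tags) had one at 500 bp and was left out.

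Members came in groups. Within 0.0125 Mb of another member, the distance used here to join regions, lay 10915 of them (70.2%, 69.5 to 71.0%), and 83.4% lay that close to any other RD region, against 84.9% over the RD list. Joining members at this distance gave 3131 groups of at least 2 members, 556 of at least 5 and 115 of at least 10, while 4623 members stood alone. When all RD regions were joined, 7640 members (49.2%) shared a domain with a region found in both lines, 5325 (34.3%) lay in a domain of several RD regions none of which was shared, and 2573 (16.6%) had no RD neighbour. Close spacing was thus no more frequent among members than in the list as a whole.

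Of the 10 fullest groups, 5 lay in or at a gene, named here from general knowledge of the hg19 map, since the lists name none. On chromosome 1, chr1:42306341-42386171 held 38 members among 49 RD regions, at HIVEP3, a zinc-finger regulator. On chromosome 3, chr3:57144817-57199298 held 23 members and no other RD region, with folds of 4.68 to 31.3, at IL17RD, which encodes the receptor-bound inhibitor of fibroblast growth factor signalling also called SEF. The nearest RH18 region to any of these 23 lay 61.8 kb away. On chromosome 9, chr9:97625622-97679603 held 28 of 33 RD regions, within the aminopeptidase gene C9orf3. A group at chr1:118643733-118701633 held 25 of 28 inside SPAG17, a gene of the ciliary axoneme, and one at chr6:53848094-53896370 held 20 of 23 at the start of MLIP, which encodes a lamin-binding protein of heart and skeletal muscle.

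The other 5 of the 10 fullest groups lay outside genes or were left unnamed. A pair lay close to each other on chromosome 8, at chr8:129949254-130018346 with 37 members of 43 RD regions and at chr8:129862931-129896415 with 22 of 22. Those at chr14:61645880-61698902 (31 of 36), chr2:200905481-200956196 (23 of 24) and chr3:177759758-177821236 (23 of 24) held 5, 0 and 1 RH18 regions in that order. In all 10 groups the RD background had a median of 2.51 times the lowest or less, below the 4 times called raised.

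By megabase, the 5 fullest held 471 members, with chr8:129000001-130000000 tied with the last of them at 78. The first was chr8:130000001-131000000 with 119 members among 145 RD regions, against 17 RH18 regions. The second was chr4:124000001-125000000, the megabase of SPRY1, with 111 members among 123 RD regions, against 9 RH18 regions. SPRY1 encodes Sprouty 1, a feedback inhibitor of receptor tyrosine kinase signalling through RAS. The next were chr9:97000001-98000000 with 85 of 105, chr12:76000001-77000000 with 78 of 95, and chr3:177000001-178000000 with 78 of 95. Members lay in 2038 megabases in all, and 58 megabases with at least 30 members each held 2562 of them.

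Several stretches were listed at length in RD without a single RH18 region. Between 2 neighbouring RH18 regions at chr8:129807062-130013259 lay 57 members, and between those at chr4:124477193-124751388 lay 48 members among 49 RD regions. The stretch chr10:65662493-69310743 spanned 3650 kb and held 40 RD regions, all members, in an interval that takes in much of CTNNA3, an alpha-catenin gene. The stretch chr7:81045319-83099006 held 39 RD regions, all members, around HGF, the ligand of the MET receptor. On chromosome 5, chr5:158690828-159545711 held 31, all members. In all, 181 such stretches had at least 10 members each and together held 2881. RH18 MYF5 summits were listed in some of them, with 3 in the chromosome 8 stretch, 1 in that on chromosome 10 and 2 in that on chromosome 7. The stretches on chromosomes 4 and 5 held 0 MYF5 summits. Copy number was not analysed here, so loss of DNA in RH18 and lack of acetylation cannot be told apart at the members of these stretches.

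**Figure D3:**
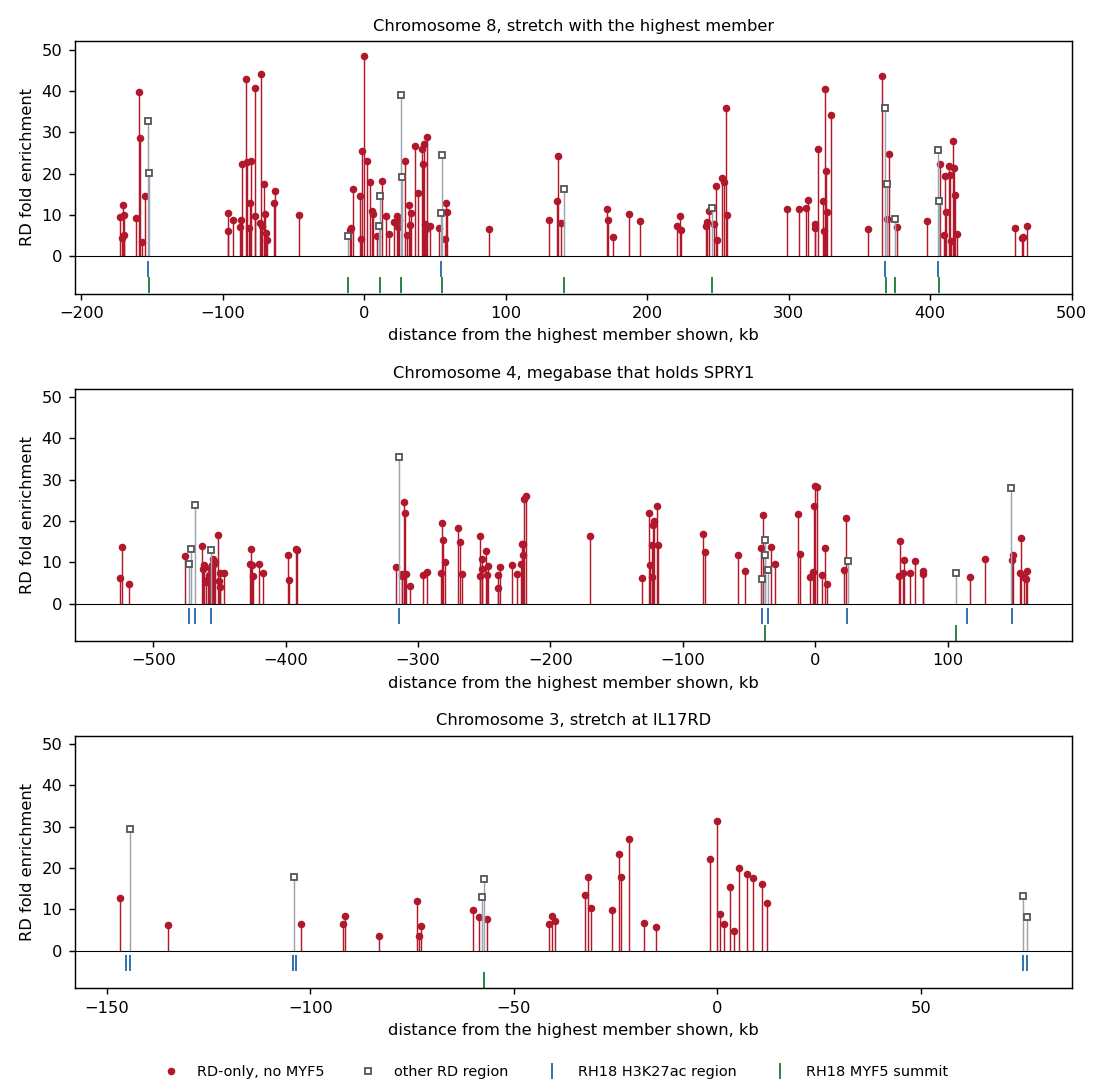
RD fold enrichment (y axis, the authors' ratio) of each RD region at its distance in kb from the highest member shown (x axis), for 3 stretches: the one on chromosome 8 with the highest member (fold 48.4), the SPRY1 megabase on chromosome 4 and the IL17RD stretch on chromosome 3. Filled red points are members, open squares other RD regions, blue ticks RH18 H3K27ac regions and green ticks RH18 MYF5 summits; the IL17RD group has 23 members and no tick of either kind among them.

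Many members of highest fold lay in a single stretch of chromosome 8. Of the 20 members of highest fold, 8 lay on chromosome 8 between 129799691 and 130326336, and the whole chromosome held 6.67% of all members. This stretch follows MYC and PVT1 and ends before CCDC26. Copy number of RD in this stretch was not analysed here, and its part in these folds was not tested. The highest, chr8:129958921-129959998, had a fold of 48.4 from 287 tags over the lowest background of the list. Outside chromosome 8 the highest was chr12:65927010-65928117, with a fold of 45.4, between MSRB3 and HMGA2, and its nearest RH18 region lay 169 bp off. Inside C9orf3, a separate member at chr9:97567034-97567750 had a fold of 40.9, 3631 bp from an RH18 region.

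Others of the 20 lay within genes. In ERC2, a presynaptic scaffold gene, chr3:56157252-56157914 had a fold of 40.1 and chr3:56088900-56089470 a fold of 37.2, and the second of these lay 77012 bp from any RH18 region. In ADAM12, a metalloprotease gene expressed in muscle precursors, chr10:128041212-128042165 had a fold of 37.1 and had RH18 acetylation 483 bp and a MYF5 summit 1993 bp away. In INPP4B, a phosphoinositide phosphatase, chr4:143326290-143327508 had a fold of 35.7 and in COL25A1, a membrane collagen needed for muscle innervation in mice, chr4:109811789-109812242 had a fold of 35.4. In SPSB4, chr3:140814276-140815139 had a fold of 37.1 at 137 bp from an RH18 region. These high members thus included both kinds, those beside an RH18 region and those far from any.

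Rich in reads is not the same as high over background. Of the 10 members with most tags, 7 lay on chromosome 8 between 129799691 and 130330211, and chr8:130097962-130098550 had 289 tags at a fold of 7.98, since its background was 14.1 times the lowest. In ANK1, which encodes the ankyrin of red cells and muscle, chr8:41685789-41686432 had 287 tags at a fold of 9.01 over a background 12.2 times the lowest. Upstream of RGS17, an inhibitor of G protein signalling, chr6:153470860-153473904 had 272 tags at a fold of 34.8 and no RH18 region within 146400 bp.

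Most of the 10 widest members lay at or beside the start of a gene. The widest of all, chr3:13387413-13391629, measured 4217 bp inside NUP210, a nuclear pore gene induced in muscle differentiation in mice, with a fold of 21 and no RH18 region within 129140 bp. At the start of KCNQ5, a potassium channel gene, chr6:73329308-73333087 measured 3780 bp, and the nearest RH18 region lay 639415 bp off. Upstream of PGF, a placental growth factor of the VEGF family, chr14:75427352-75431005 measured 3654 bp. At the start of MEIS2, a homeobox partner of HOX proteins, chr15:37387444-37390534 measured 3091 bp and ended 137 bp from an RH18 region. At the start of TLL2, a metalloprotease gene, chr10:98270568-98273577 measured 3010 bp. Beside HOXA11, chr7:27226928-27229843 measured 2916 bp over a background of 9.4 times the lowest, and at the start of ZFHX4, a zinc-finger homeobox gene, chr8:77593088-77595876 measured 2789 bp.

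The 252 members in the highest decile of RD regions by tags had a median of 198 tags, a median fold of 21.5 and a median width of 839.5 bp. Chromosome 8 held 52 of them (20.6%) and chromosome 12 held 34 (13.5%), against 6.67% and 7.05% of all members. Of the 52, 32 lay in chr8:129000001-131000000 alone. Within 5 kb of an RH18 region lay 89 (35.3%), close to the 39.5% of all members, and 71 (28.2%) lay over 50 kb from one. Raised background was found under 87 (34.5%), against 12.0% of all members.

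Across chromosomes the share of members differed widely around the 36.0% of the list. It was 55.1% (52.6 to 57.6%) on chromosome 4, 47.9% (45.7 to 50%) on chromosome 8, 47.4% (43.9 to 50.9%) on chromosome 18 and 43.4% (41.5 to 45.4%) on chromosome 12. It was 21.4% on chromosome 16, 20.6% on chromosome 17 and 15% (13.4 to 16.7%) on chromosome 19, the last with 286 members of 1910 RD regions. The median RD background was 1.57 times the lowest over chromosome 4, 2.6 times over chromosome 8 and 3.9 times over chromosome 19. Its part in the share was not tested, and copy number of the lines was not analysed here.

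**Figure D4:**
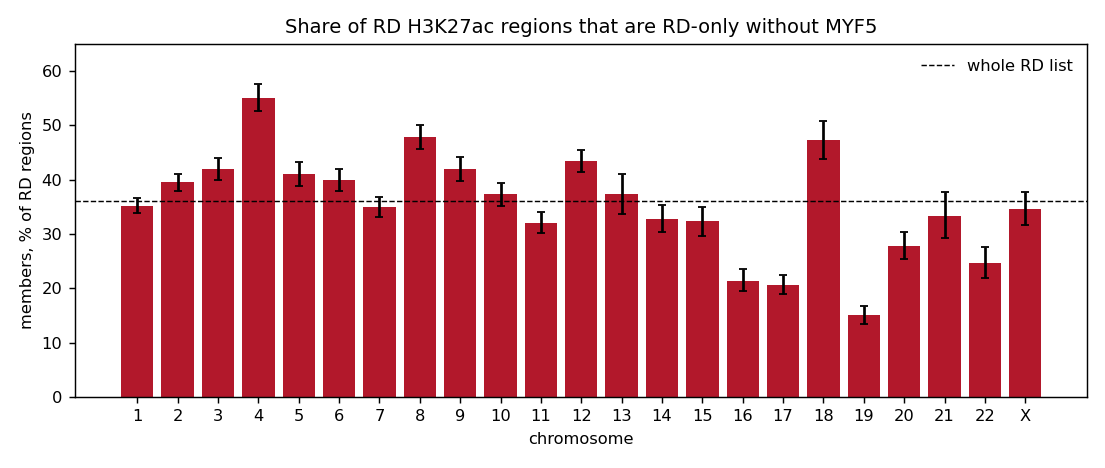
Share of RD H3K27ac regions that are RD-only without MYF5 (y axis, %) on each chromosome (x axis; chromosome Y, with 1 RD region, is not drawn), with exact 95% intervals; the dashed line is the 36.0% of the whole list. Chromosomes 4 (55.1%), 8 (47.9%) and 18 (47.4%) stand highest of those drawn and chromosome 19 (15%) lowest.

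Around MYC on chromosome 8, members were few at the gene and many beyond it. In the window of MYC and the start of PVT1, chr8:128700001-128850000, 1 of 12 RD regions was a member, and the RD background was a median of 6.67 times the lowest. In chr8:128850001-129200000 11 of 31 were members, over a background of 3.02 times the lowest. In chr8:129200001-129600000 10 of 13 RD regions were members, and in chr8:129600001-130000000 61 of 68, with a background of 1.83 times the lowest. In chr8:130000001-130500000 71 of 83 were members, against 6 RH18 regions. In chr8:130500001-131000000 48 of 62 were members, again over a background of 3.02 times the lowest. Under the members alone the median was 1.59 times in chr8:128850001-129200000 and 3.02 times in this last window. The part of the background in these shares was not tested.

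Lists of genes for pathways, cell types and the stretch around MYC were then set against the members, with a window of 50 kb on each side of a gene's start. Of the 239 genes in 14 lists, 126 (52.7%) had a member in the window, and 490 of the 1390 RD regions in all windows were members (35.3%, 32.7 to 37.8%), close to the 36.0% of the list. The lists spread on both sides of that value, from 12.4 to 58.2%. Genes of one cluster share regions, so each region was counted once per list.

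In windows of 50 kb and under the main rule, regulators of body position had the largest share. The small MYC stretch list followed with 24 of 46 (52.2%, 36.9 to 67.1%). Its genes are neighbours on chromosome 8, around the fullest megabase, and were chosen with earlier results known. Its share thus follows from where the genes were picked and is no finding. Near the homeobox and T-box genes of the body position list 110 of 189 RD regions were members (58.2%, 50.8 to 65.3%), and 20 of the 23 genes had one. HOX genes of the same cluster have overlapping windows, so these genes are not separate loci. Near HOXD10, a limb and hind-body gene, 20 of 23 RD regions were members and 4 RH18 regions were listed. Near HOXA9 and HOXA10, whose windows held the same counts, 22 of 35 were members, against 11 RH18 regions. Near HOXC8 it was 21 of 41 and near HOXB7 14 of 33, against 27 and 19 RH18 regions. PITX1, a hindlimb factor, had 7 RD regions, all members, with folds up to 8.76, and MEIS1, a HOX partner, had 5 of 7. The members near this list had a median of 82.5 tags, against 68 for members near all lists. Of these 110 members, 79 (71.8%) lay within 5 kb of an RH18 region, against 65.1% near all lists.

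Feedback genes of the RAS-MAPK pathway came next among the larger lists. Receptor tyrosine kinases signal through RAS to the kinases RAF, MEK and ERK, and ERK switches on its own inhibitors, the Sprouty and SPRED proteins and the dual-specificity phosphatases, along with ETS factors of the PEA3 group. Near these genes 80 of 170 RD regions were members (47.1%, 39.4 to 54.9%), and 13 of the 20 genes had one. SPRY1 had 22 members among 26 RD regions, with folds up to 16.6, against 3 RH18 regions and 0 MYF5 summits. SPRY4 had 14 of 21 against 5 RH18 regions, and SPRY2 had 8 of 14 against 4. DUSP6, the cytoplasmic phosphatase of ERK, had 15 of 20, the highest with a fold of 32.9 from 194 tags, against 6 RH18 regions, and 13 MYF5 summits lay in its window. All 4 genes thus had more RD than RH18 regions, although 3 of them had an RH18 region whose fold in its own list was 57.5 or more, namely SPRY1, SPRY2 and SPRY4.

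The rest of this list was uneven. ETV5, a PEA3 factor, had 5 members of 8 RD regions, PHLDA1, a pleckstrin-domain target of the pathway, had 4 of 10, and SPRED2 had 3 of 7. Others of the same families had fewer: SPRED1 had 2 of 4, ETV1 1 of 3, DUSP5 1 of 4, ETV4 1 of 9 and SPRED3 0 of 7. DUSP4 had 2 of 5, over a raised background. None of the RD regions near EGR1, CCND1, EPHA2 or NRAS was a member, and HRAS had 2 of 9. The members were concentrated at SPRY1, SPRY2, SPRY4 and DUSP6 among these 20 genes.

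Muscle regulators were mixed. Near the myogenic factors 76 of 192 RD regions were members (39.6%, 32.6 to 46.9%), close to the 35.3% over all lists. PITX3, a homeobox factor of muscle and lens, had 20 of 25, against 5 RH18 regions. MEF2C, a partner of the MyoD family, had 4 RD regions, all members, and no listed RH18 region. MSC, which encodes the repressor musculin, had 8 of 16, over a window with 8 MYF5 summits. At the MYF5 and MYF6 genes a single RD region was listed, and it was a member with a fold of 20.3, against 4 RH18 regions.

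Near genes of muscle structure the share was lower, at 36 of 155 (23.2%, 16.8 to 30.7%). Of the 22 genes, 13 (59.1%) had a member and 7 had at least 3. Over the 239 genes of all lists it was 126 (52.7%) and 67. MYL1, a fast myosin light chain, had 7 RD regions, all members and with folds up to 23.6, and no listed RH18 region. CHRNA1, the acetylcholine receptor alpha subunit, had 5 of 9, with a member of fold 31.0. MYH3, an embryonic myosin heavy chain, had 6 of 12, CHRNG, the fetal receptor subunit, had 6 of 12, and TNNT2, a troponin gene, had 4 of 16. DES, ACTA1, TNNT1, TNNT3 and TNNC2, of the desmin, actin and troponin families, had 0 members among 18, 5, 7, 8 and 12 RD regions in that order. The members of this list were thus spread over several loci, with none at others.

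AP-1, TEAD and YAP genes had the smallest share in windows of 50 kb. These encode immediate-early factors and the effectors of Hippo signalling, which act at enhancers of many cell types. Only 19 of 153 RD regions were members (12.4%, 7.64 to 18.7%), and 9 of 21 genes had one. FOSB had 6 of 19 and TEAD1 4 of 11, whereas JUN, JUND, FOSL1, YAP1 and WWTR1 had 0 of 7, 10, 12, 3 and 3. An RH18 region lay within 5 kb of 18 of these 19 members.

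The Wnt, fibroblast and other lists lay between. Near Wnt genes 37 of 100 RD regions were members (37.0%), among them all 8 at LGR5, a receptor of stem cells, where no RH18 region was listed, 7 of 11 at FZD7 and 5 of 9 at WNT5A. Near fibroblast and matrix genes it was 33 of 100 (33.0%), with 14 of 19 at TNC, which encodes tenascin C, and 0 of 13 at COL1A1. TGF-beta and BMP genes had 28 of 109 (25.7%), among them 6 of 8 at the receptor gene TGFBR2, and growth factor receptors had 18 of 66 (27.3%). In the lists for other cell types, 3 of 11 RD regions were members for epithelial, 5 of 12 for endothelial, 13 of 37 for blood and 8 of 50 for neural and crest genes. Intervals of these small lists were wide, from 15.2 to 72.3% for the endothelial list.

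**Figure D5:**
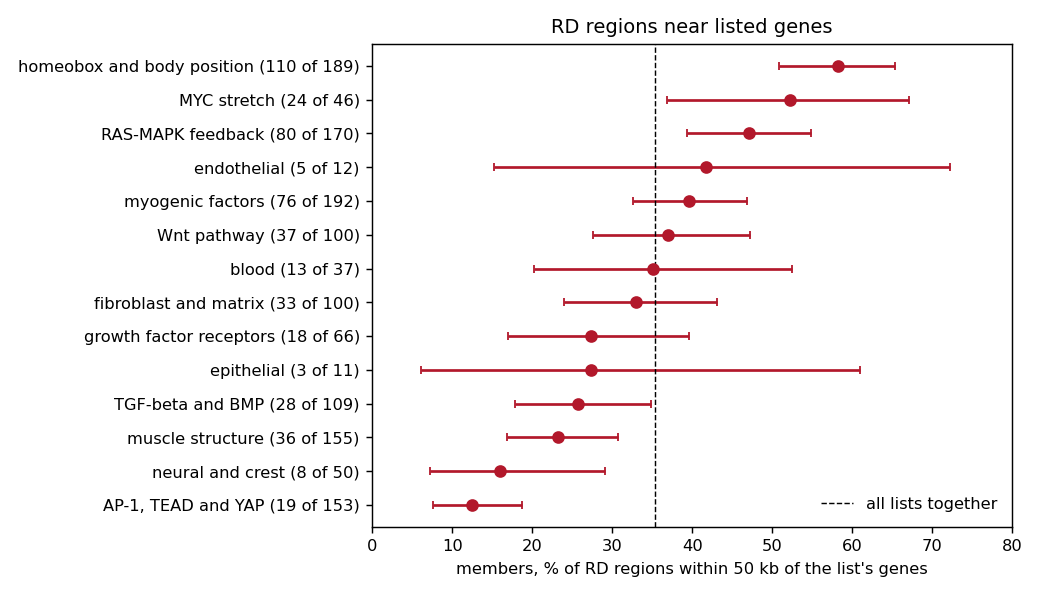
Share of members among RD regions within 50 kb of the genes of each list (x axis, %), with exact 95% intervals and, in brackets, members of RD regions; the dashed line is the 35.3% over all lists. The homeobox list (58.2%) stands at the top and the AP-1, TEAD and YAP list (12.4%) at the bottom.

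The order of the lists given above is that of the main setting. It changed with other settings, also where the window stayed at 50 kb. With regions within 5 kb of an RH18 region left out of the members, the share was 26.1% near the MYC stretch, 22.4% near RAS-MAPK feedback genes, 16.4% near homeobox genes, 11% near genes of muscle structure and 0.654% near AP-1, TEAD and YAP genes, where it was 21.8% over the whole RD list. In a window of 200 kb it was 59.1% near the MYC stretch, 53.9% near RAS-MAPK feedback genes, 52.4% near homeobox genes and 21.5% near AP-1, TEAD and YAP genes, the last above growth factor receptors (16.8%) and epithelial genes (11.5%). Without regions of raised background it was 77.8% near the MYC stretch, 75% near epithelial genes, 63.1% near homeobox genes and 57.1% near RAS-MAPK feedback genes. Over the whole RD list it was 46.5% in that setting. The epithelial list had only 11 RD regions even before those of raised background were left out, so its share rests on very few. No list stood first or last at every setting.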

How the data were processed

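Peak lists of 3 ChIP libraries were used: H3K27ac in RD, and H3K27ac and MYF5 in RH18, with 1 library per group; the 2 input samples had no list here. Per the submitters' processing notes, the tools were BWA 0.7.10 and MACS2 2.1.0 and the build hg19; no role, order, control or threshold is given there. The authors deposited for each peak a fold enrichment with its −log10 p-value and −log10 q-value. By the formula of MACS2 the fold is the ratio of summit pileup to local background after the same constant is added to both. The score column, as deposited by the authors, was not used. Total reads per library are not given in the sources used here.

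Tags and local background at each summit were worked back from the fold and p-value that the authors deposited, by the formulas of MACS2, keeping solutions at or above the most frequent background of the list and taking the nearest whole tag. Tags were whole within 0.1 tag for 100.0% of RD peaks, and 45.4% of RD peaks had more than 1 solution. Of 2995 simulated RD peaks, 100.0% got back the tags they were made with. One read added 0.2727 to the pileup in RD and 0.8322 in RH18, so folds were not compared between lines.

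Regions were compared by overlap (at least 1 bp), distance and joining at 0.0125 Mb in Python 3.11.15 with scipy 1.17.1, matplotlib 3.10.9, pandas 2.3.3 and numpy 2.4.6. Regions named were the 20 members of highest fold, the 10 with most tags, the 10 widest, the 10 fullest groups, the 5 fullest megabases and members at the limits of the rule; from each set some are printed. Stretches free of RH18 regions and the windows on chromosome 8 were chosen after their values were seen. The members, lists and rules were chosen with earlier results of these data known.

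Genes were to be named only with an annotation of build hg19, which was not used here. After the fullest stretches had been seen, start positions of 239 listed genes were instead entered from general knowledge of hg19, rounded to 10 kb, and other genes were placed from the same knowledge. All 239 were found in RefSeq's table for GRCh38.p14 on the entered chromosome, and 211 of 211 neighbouring pairs over 10 kb apart stood in the same order; its coordinates were not used. Genes printed from a list were picked after their counts were seen.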

Additional observations from a re-analysis of the deposited data

How the results depend on the processing

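Of 138 alternative values, 62 stayed within the interval of the main value (for counts, within 1.5 times) and 76 did not, and each library being alone leaves no left-out replicate. No paired analysis was possible because each group held 1 library. The number of members was 15538, and it was 9405 with RH18 regions within 5 kb left out, 8801 with both lists held to a −log10 q of 10 or more, and 25137 where sharing asked for an overlap of 50% of both regions. The share of RD regions that were members (36.0%) was 39.0% with MYF5 summits inside only, 34.6% and 30.2% with none within 1 and 5 kb, 30.8% and 21.8% with no RH18 region within 0.5 and 5 kb, 58.2% at 50% overlap, 35.4% and 29.9% with that limit at 5 and at 10, 46.5% without raised background and 35.4% without the 5 fullest megabases. The share within 5 kb of an RH18 region (39.5%) was 40.8% for MYF5 inside only, 38.3% and 32.4% for 1 and 5 kb, 29.2% for no RH18 region within 0.5 kb, 62.6% at 50% overlap and 38.0% at the higher q limit. The share within 0.0125 Mb of another member (70.2%) was 71.2% for MYF5 inside only, 67.6% for 5 kb, 71.3% and 68.7% for no RH18 region within 0.5 and 5 kb, 75.3% at 50% overlap, 69.0% and 63.2% at both q limits, 68.3% without raised background, 69.4% without the fullest megabases, and 62.1% and 76.4% when joined at 5 and 25 kb. Raised background (12.0%) stood at 11.4% and 11.1% with no RH18 region within 0.5 and 5 kb, 26.6% at 50% overlap, 11% and 10.6% at both q limits, and 29.5% and 2.64% when raised meant 2 and 8 times the lowest. The share on chromosome 8 (6.67%) was 6.27% for no MYF5 within 5 kb, 7.1% for no RH18 region within 5 kb, 5.57% at 50% overlap, 7.19% at the higher q limit, 6.24% without raised background and 6.09% without the fullest megabases. Median width (274 bp) was 277 bp for no RH18 region within 0.5 or 5 kb, 294 bp at 50% overlap, 280 and 339 bp at both q limits and 268 bp without raised background. Median tags (58) were 57 for no RH18 region within 5 kb, 70 at 50% overlap, 60 and 75 at both q limits and 54 without raised background. Among the gene lists, the RAS-MAPK feedback share (47.1%) was 57.1% without raised background and 22.4% with no RH18 region within 5 kb, the homeobox share (58.2%) was 16.4% in that setting, and the AP-1, TEAD and YAP share (12.4%) was 0.654% in that setting and 21.5% in a 200 kb window. The muscle structure share (23.2%) was 15.7% at the higher q limit and 11% with no RH18 region within 5 kb, and the growth factor receptor share (27.3%) was 16.8% in a 200 kb window. Over all lists, 34 of 56 list values stayed within the interval. Leaving out the 5 fullest megabases kept chr8:129000001-130000000, tied at 78 members. The settings for gene lists were chosen after seeing the data; the causes were not tested. Shares at gene starts and of sequence motifs, and their alternatives, were not run, since no hg19 annotation or genome was used here. The lists end at different p-values, a missing RH18 region means only no listed peak, and tags under an unlisted site are not in a peak list.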
